A study of Homo sapiens with 6 samples.

Results

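Genes of the circadian clock and its close outputs were followed in RNA-seq data of DU145, an established cell line from a human prostate carcinoma. They were taken from a table of 19727 genes by name, and there were 10 members: the period genes PER1, PER2 and PER3, the cryptochromes CRY1 and CRY2, the activator CLOCK, the PAR bZIP factors DBP, TEF and HLF, and the repressor BHLHE40. In the table, 9 of the 10 were found by symbol. The row of PER1 carried the symbol AC129492.1 and was recognized by its Ensembl gene identifier, ENSG00000179094.

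The study asked what the circular RNA circCSPP1 does in prostate cancer cells. DU145 cells carrying a lentivirus that overexpresses circCSPP1 (lentivirus-circCSPP1, n = 3 libraries) were set against DU145 cells carrying the control lentivirus (lentivirus-NC, n = 3 libraries). Per the study's methods both were stable lines made by puromycin selection and grown in DMEM with fetal bovine serum, so both groups share the lentiviral vector, the drug selection and the medium. Neither the labels nor the methods give the hour of harvest or the time since the last medium change, so a change in level and a change in clock phase cannot be told apart. The replicates are not said to be separate cultures, and p-values then measure only the spread between these libraries, which may be technical.

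The mammalian clock is a transcriptional feedback loop. CLOCK pairs with BMAL1 (gene symbol ARNTL) and activates genes that carry an E-box, among them the PER and CRY genes, whose proteins return to the nucleus and repress CLOCK and BMAL1. BHLHE40, also called DEC1, is itself an E-box protein that represses the same activators, while the REV-ERB receptors (NR1D1 and NR1D2) repress ARNTL in a second loop and DBP, TEF and HLF carry the rhythm to genes with D-boxes. In cultured cells the loop is reset by serum, glucocorticoids and cAMP, and unsynchronized cells in a dish drift apart in phase, so that bulk RNA reports an average over the population.

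The E-box and the D-box are short words, and they are shown here because they tie the members to one another: E-boxes are where CLOCK and BHLHE40 bind, and D-boxes are where the PAR bZIP factors bind. The 250 bases before the RefSeq start of each gene (GRCh38.p14) were searched on both strands for the E-box CACGTG, for the D-boxes TTATGTAA, TTACATAA and TTACGTAA, and for the cAMP response element TGACGTCA, and these motifs do not overlap one another in the matches found. All 10 members had a promoter in the table, and 4 of the 10 held a match, 3 of them an E-box. Across 27305 promoters of the same length 6.49% held the E-box, 0.978% a D-box and 1.77% the cAMP response element. The 30 bases around each match are given on the strand of the gene, 5′ to 3′, with the motif in capitals.
PER1 (chr17:8152560-8152589, minus strand, E-box 173 to 168 bases before the start): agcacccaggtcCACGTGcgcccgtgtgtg
TEF (chr22:41367248-41367277, plus strand, E-box 195 to 190 bases before the start): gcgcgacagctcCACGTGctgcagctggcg
BHLHE40 (chr3:4979187-4979216, plus strand, E-box 245 to 240 bases before the start): tccaaCACGTGagactcatgtgatgaagcc
PER3 (chr1:7784103-7784132, plus strand, D-box 177 to 170 bases before the start): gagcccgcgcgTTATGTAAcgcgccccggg
A match is a word in the sequence and not a measured binding site. The BHLHE40 and PER1 matches lie downstream of the gene starts in GENCODE release 29 (4979116 for BHLHE40 and, on the minus strand, 8156506 for PER1), which are further upstream than the RefSeq starts. The same windows of NR1D1 and NR1D2 held no match.

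Depth was read from the smallest steps of the FPKM values (fragments scaled by transcript length and by the library total) and was 28800000 to 36350000 fragments in the lentivirus-NC libraries and 28850000 to 34650000 in the lentivirus-circCSPP1 libraries, so the groups overlapped in depth. The 20 most abundant genes held 14.9% to 15.2% of the summed FPKM under lentivirus-NC and 12% to 12.1% in lentivirus-circCSPP1. The circular RNA is not a row of this gene table, so its overexpression was not checked here. Epithelial identity was present, with 5 of 5 epithelial markers reaching 1 FPKM, but those 5 markers (EPCAM, CDH1, KRT8, KRT18 and KRT19) were also lower in lentivirus-circCSPP1, with log2 fold changes from -1.58 to -0.56 and adjusted p from 0.00056 to 0.017 in limma. Their summed level was 2271 to 2361 FPKM under lentivirus-NC and 1046 to 1278 FPKM under lentivirus-circCSPP1. The prostate luminal markers KLK3 and KLK2 were listed at 0 in all 6 libraries. Markers of fibroblast and stromal cells summed to 2.94 to 4.39 against 1.33 to 2.05 FPKM with 1 of 5 reaching 1 FPKM and LUM at 0 throughout, leukocyte markers to 2.39 to 2.46 against 0.90 to 2.21 FPKM with 1 of 4 reaching it and CD3E at 0, and endothelial markers to 0.28 to 0.62 against 0.16 to 0.56 FPKM with 0 of 3 reaching it. The part of these shifts in the clock gene values was not tested.

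Among the clock genes, BHLHE40 fell to 44.3% of its control level, and it was the one member called different between the groups. The 6 other members abundant enough to test (PER1, CRY1, CRY2, CLOCK, DBP and TEF) were not called, and PER2, PER3 and HLF lay under the filter of a mean of 1 FPKM over the 6 libraries. Differences were tested with limma on log2(FPKM + 1) across 12322 genes, with Benjamini-Hochberg adjustment over all of them. Because of the 1 added, the log2 fold change of a weakly expressed gene comes out smaller than that of its FPKM.

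At an adjusted p of 0.05, 1 of 7 tested members was called (14.3%), against 11.4% of all tested genes. The called member was lower, a direction in which 6.66% of tested genes were called, while 4.69% were called higher. The members' share of calls was thus near the background. The groups did not overlap in 2 of 7 members (28.6%), and they did not overlap in 36.4% of all tested genes. The median log2 fold change of the 7 was -0.14, beside -0.028 for all tested genes, with 2 members higher and 5 lower where 46.0% of all tested genes were higher, and the signs of PER1 and DBP turned with the scaling. The study's own thresholds were a p under 0.01 with a log2 fold change of 1.5 or more in size, and whether that p was adjusted is not stated. They were applied here to the p before adjustment and to the log2 fold change of FPKM + 1. With them, 0 of 7 members passed in limma or in the unmoderated test, beside 0.195% of all tested genes in limma. At an unadjusted p of 0.05, limma counted 1 member and 28.2% of all tested genes, and the unmoderated test 2 members and 25.8% of all tested genes.

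**Figure D1:**
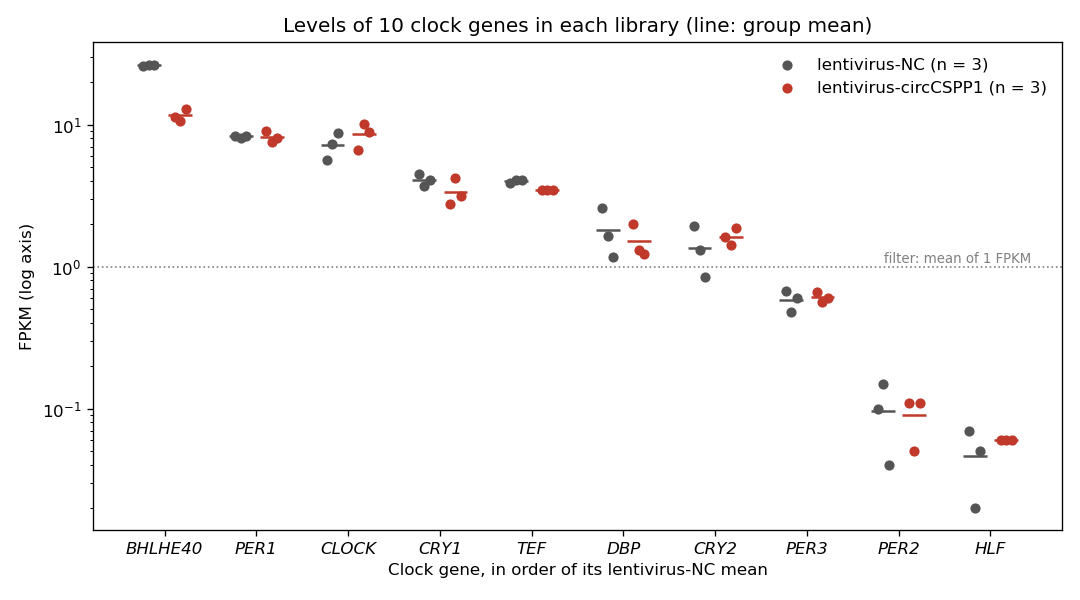
FPKM of the 10 clock genes in each of the 6 libraries on a log axis, with a line at each group mean and a dotted line at the filter of 1 FPKM. BHLHE40 is the most abundant member in both groups and the one with a wide gap between them (26.2 against 11.6 FPKM), while PER2, PER3 and HLF sit under the filter.

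BHLHE40, the E-box repressor, lies on the plus strand of chromosome 3 (4979116 to 4985323, GRCh38, GENCODE release 29). Its level was 26.03, 26.18 and 26.48 FPKM in replicates 1, 2 and 3 of lentivirus-NC. In the same order it was 11.29, 10.61 and 12.95 FPKM with the overexpression virus. The control libraries were nearly alike, and each of the overexpression libraries lay far below the lowest of them. The group means were 26.2 ± 0.229 and 11.6 ± 1.20 FPKM (SD, n = 3 each). The log2 fold change was -1.11 (SE 0.10, 95% interval -1.36 to -0.87), with an adjusted p of 0.0023 in limma. Of the 12322 tested genes, 62 fell by at least as much.

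About 2619 to 3343 fragments in the control libraries and 1272 to 1298 in the overexpression libraries were estimated to have come from BHLHE40, if its longest coding transcript is the one expressed. In bulk RNA, fewer cells that express the gene and less of its RNA per cell cannot be told apart. Leaving out any library, or changing the scaling, filter, pseudocount or variance model, kept the log2 fold change between -1.19 and -1.06. The adjusted p, from limma or the unmoderated test, was at or under 0.023 in each of the 18 alternatives. An exact two-sided permutation test of 3 against 3 libraries gave p = 0.1, the smallest it can give. BHLHE40 shares 4 exon bases with an antisense gene, BHLHE40-AS1, so little of its value can come from that overlap.

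**Figure D2:**
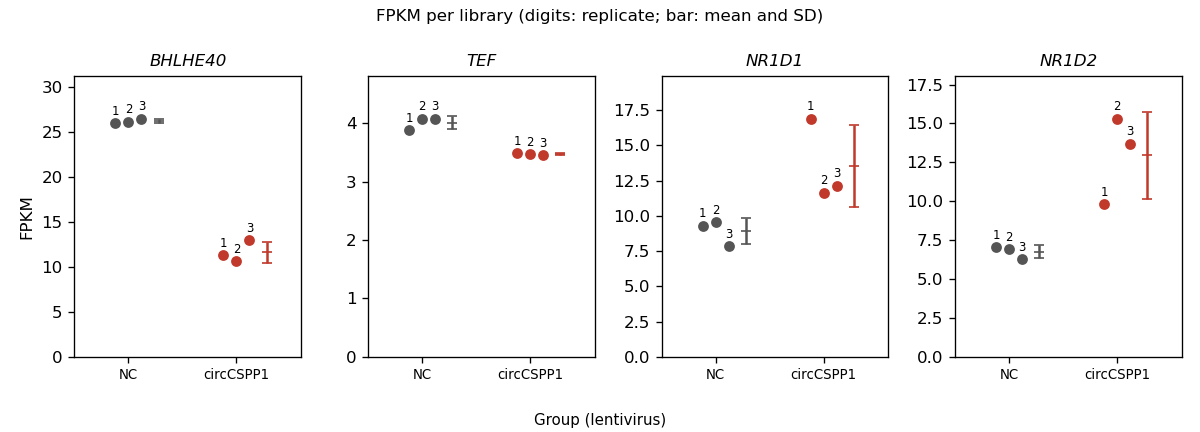
FPKM per library of BHLHE40, TEF, NR1D1 and NR1D2 on linear axes from 0, with digits for the replicate and bars for the group mean and SD. In each panel the groups do not overlap, which held for 36.4% of all tested genes. BHLHE40 and TEF are lower and NR1D1 and NR1D2 higher in lentivirus-circCSPP1. TEF (adjusted p = 0.31 in limma) and NR1D1 (adjusted p = 0.070 in limma) were not called.

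CLOCK, the activating partner of BMAL1 on chromosome 4 (55427903 to 55547138, minus strand), read 5.60, 7.29 and 8.70 FPKM under lentivirus-NC and 6.61, 10.2 and 8.94 FPKM under lentivirus-circCSPP1. The libraries of each group spread widely and the groups overlapped. Its log2 fold change was 0.22 (SE 0.19, 95% interval -0.23 to 0.67, adjusted p = 0.50 in limma), an interval that runs from a fall to a rise. CLOCK shares 76 exon bases with TMEM165 and 27 with an antisense gene on the opposite strand, and whether counting used the strand is not given in the sources used here.

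The period genes encode repressors of CLOCK and BMAL1, and they differed widely in level. PER1 (chromosome 17, 8140472 to 8156506, minus strand) read 8.37, 8.06 and 8.36 FPKM under lentivirus-NC and 9.05, 7.55 and 8.07 FPKM under lentivirus-circCSPP1. The control values lay inside the range of the overexpression values. The means were 8.26 ± 0.176 and 8.22 ± 0.762 FPKM (SD, n = 3 each), and the log2 fold change of -0.0093 had a 95% interval from -0.26 to 0.24 (adjusted p = 0.97 in limma). Of the 7 tested members PER1 had the smallest difference, and its sign turned with the scaling.

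PER1 shares 30 exon bases with a neighboring coding gene on its own strand, AC129492.3, and holds the microRNA gene MIR6883. The row of that neighbor (ENSG00000263620) carried the symbol AC129492.4. It read 6.71, 8.04 and 6.72 FPKM under lentivirus-NC and 8.05, 5.56 and 5.02 FPKM under lentivirus-circCSPP1, with a log2 fold change of -0.20 (adjusted p = 0.50 in limma). Reads of the shared stretch cannot be assigned to either gene from these values.

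PER2 (chromosome 2, 238244038 to 238290102, minus strand) was close to absent, at 0.10, 0.15 and 0.04 FPKM under lentivirus-NC and 0.11, 0.05 and 0.11 FPKM under lentivirus-circCSPP1. These values stood for an estimated 9 to 28 fragments per library, few enough for counting error to weigh on each value. PER3 (chromosome 1, 7784320 to 7845177, plus strand) was higher than PER2, at 0.67, 0.48 and 0.60 FPKM under lentivirus-NC and 0.66, 0.56 and 0.60 FPKM under lentivirus-circCSPP1, or an estimated 87 to 138 fragments. With no filter on low values, the limma log2 fold change was -0.0081 for PER2 (adjusted p = 0.94) and 0.022 for PER3 (adjusted p = 0.86). PER3 shares 868 exon bases with UTS2 and 482 with an antisense gene on the opposite strand, and PER2 shares 188 with a noncoding gene. The summed FPKM of the 3 period genes was 8.69 to 9.14 in lentivirus-NC and 8.16 to 9.82 in lentivirus-circCSPP1, so PER1 made up nearly the whole of the family's RNA in both groups.

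The cryptochromes are the partners of the PER proteins and the stronger direct repressors of CLOCK and BMAL1. CRY1 (chromosome 12, 106991364 to 107093829, minus strand) read 4.47, 3.70 and 4.08 FPKM under lentivirus-NC and 2.77, 4.21 and 3.13 FPKM under lentivirus-circCSPP1. In lentivirus-circCSPP1, replicates 1 and 3 lay below the control libraries and replicate 2 lay among them. The log2 fold change was -0.23 (SE 0.15, 95% interval -0.57 to 0.12, adjusted p = 0.35 in limma).

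CRY2 (chromosome 11, 45847118 to 45883248, plus strand) read 1.94, 1.30 and 0.84 FPKM under lentivirus-NC and 1.61, 1.41 and 1.86 FPKM under lentivirus-circCSPP1. The spread within the control group covered the overexpression libraries. Its log2 fold change was 0.18 (SE 0.18, 95% interval -0.24 to 0.60, adjusted p = 0.57 in limma). CRY1 exceeded CRY2 in level in each library, and the sum of both was 4.92 to 6.41 FPKM under lentivirus-NC and 4.38 to 5.62 FPKM under lentivirus-circCSPP1.

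The PAR bZIP factors DBP, TEF and HLF bind D-boxes and are read as the output arm of the clock. TEF (chromosome 22, 41367333 to 41399326, plus strand) read 3.89, 4.08 and 4.08 FPKM under lentivirus-NC and 3.49, 3.47 and 3.46 FPKM under lentivirus-circCSPP1. The libraries of each group lay close together and the groups did not overlap, with the overexpression mean at 86.5% of the control mean. The means were 4.02 ± 0.110 and 3.47 ± 0.0153 FPKM (SD, n = 3 each), and the log2 fold change was -0.17 (SE 0.098, 95% interval -0.39 to 0.063). limma, which draws each gene's variance toward that of other genes of like level, gave an adjusted p of 0.31. The unmoderated test, which uses the spread of TEF alone, gave an adjusted p of 0.029, and TEF passed in that alternative and in none of the other 16 that could be run on it.

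DBP, whose transcript is among the most rhythmic in many tissues, lies on chromosome 19 (48630030 to 48637438, minus strand). It read 2.59, 1.64 and 1.17 FPKM under lentivirus-NC and 1.99, 1.30 and 1.23 FPKM under lentivirus-circCSPP1. The libraries differed more within each group than the group means did. Its log2 fold change was -0.14 (SE 0.21, 95% interval -0.62 to 0.34, adjusted p = 0.71 in limma), with an estimated 79 to 169 fragments per library. DBP shares 661 exon bases with SPHK2 on the opposite strand.

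HLF (chromosome 17, 55265012 to 55325065, plus strand) was the least abundant member, at 0.07, 0.02 and 0.05 FPKM under lentivirus-NC and 0.06 FPKM in every lentivirus-circCSPP1 library. These values stood for an estimated 3 to 12 fragments, and with no filter the limma log2 fold change was 0.019 (adjusted p = 0.76). Summed over the PAR bZIP factors, the level was 6.55, 5.74 and 5.30 FPKM under lentivirus-NC and 5.54, 4.83 and 4.75 FPKM under lentivirus-circCSPP1, and the groups overlapped.

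Since FPKM is scaled by transcript length, the members can be placed in an order of level. In lentivirus-NC the means ran from BHLHE40 (26.2 FPKM) through PER1 (8.26), CLOCK (7.20), CRY1 (4.08), TEF (4.02), DBP (1.80), CRY2 (1.36), PER3 (0.583) and PER2 (0.0967) to HLF (0.0467 FPKM). The ranges of PER1 and CLOCK, of CRY1 and TEF, of DBP and CRY2, and of PER2 and HLF overlapped, so these neighbors did not differ in level beyond their spread. In lentivirus-circCSPP1 the order of CLOCK and PER1, of TEF and CRY1, and of CRY2 and DBP was exchanged, each within overlapping ranges. BHLHE40 kept the top place in both groups, but its margin narrowed to 11.6 against 8.57 FPKM for CLOCK.

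**Figure D3:**
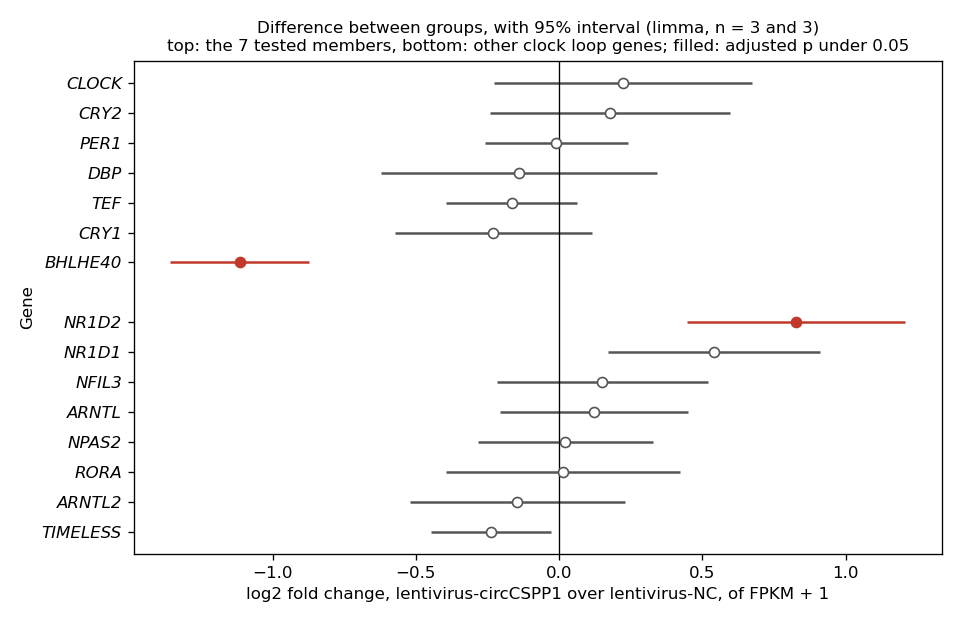
Log2 fold change of FPKM + 1, lentivirus-circCSPP1 over lentivirus-NC, with its 95% interval from limma, for the 7 tested members and 8 other tested genes of the clock loops (n = 3 libraries per group). Filled points have an adjusted p under 0.05, which holds for BHLHE40 (-1.11) and NR1D2 (0.83).

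Other genes of the loops were read from a list of 12, of which 8 were tested. Of these, 1 was called higher (12.5%, against 11.4% of all tested genes) and 0 lower in limma, with a median log2 fold change of 0.07. At an unadjusted p of 0.05, limma counted 2 higher and 1 lower, beside 28.2% of all tested genes in either direction. The called gene was NR1D2, which encodes REV-ERB beta, a heme-binding repressor of ARNTL. It read 7.05, 6.92 and 6.29 FPKM under lentivirus-NC and 9.82, 15.3 and 13.7 FPKM under lentivirus-circCSPP1. Each overexpression library exceeded the highest control library. The log2 fold change was 0.83 (SE 0.16, 95% interval 0.45 to 1.21, adjusted p = 0.021 in limma), but the call was lost without any one of the 3 lentivirus-NC libraries, without lentivirus-circCSPP1 replicate 3 and in the unmoderated test, where the adjusted p was 0.079 to 0.089.

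NR1D1, which encodes REV-ERB alpha, read 9.31, 9.57 and 7.87 FPKM under lentivirus-NC and 16.9, 11.6 and 12.2 FPKM under lentivirus-circCSPP1. Its groups did not overlap either, but its log2 fold change of 0.54 (SE 0.16, 95% interval 0.17 to 0.91) had an adjusted p of 0.070 in limma and was not called. Summed, the REV-ERB genes gave 15.7 ± 1.31 FPKM under lentivirus-NC and 26.5 ± 0.569 FPKM under lentivirus-circCSPP1 (SD, n = 3 each). The single genes varied more between the overexpression libraries than their sum did, since replicate 1 was the highest for NR1D1 and the lowest for NR1D2. On the log2 scale, replicate 1 departed from the mean of replicates 2 and 3 by 0.47 for NR1D1 and -0.52 for NR1D2. Their longest coding transcripts have 59.45% and 38.47% GC, and departures of this library followed GC content, as described below. The part of base composition in the narrow spread of the sum was not tested.

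ARNTL, the partner of CLOCK and the target of the REV-ERB repressors, read 23.5, 25.3 and 25.6 FPKM under lentivirus-NC and 21.8, 30.6 and 29.7 FPKM under lentivirus-circCSPP1, with a log2 fold change of 0.12 (adjusted p = 0.63 in limma). BHLHE40 and ARNTL stood at about the same level in the control libraries, with a BHLHE40 to ARNTL ratio of FPKM of 1.11, 1.03 and 1.03. In lentivirus-circCSPP1 the ratio was 0.519, 0.347 and 0.436. This ratio within a library shows an unequal change of the pair, and BHLHE40 alone also separated the groups. NPAS2, a relative of CLOCK (log2 fold change 0.02, adjusted p = 0.94), RORA, an activator of ARNTL (0.01, adjusted p = 0.97), and NFIL3, a repressor at D-boxes (0.15, adjusted p = 0.58), were not called in limma, and BHLHE41, the paralog of BHLHE40, was under the filter at 0.03, 0.10 and 0.03 FPKM under lentivirus-NC and 0.12, 0.12 and 0.03 FPKM under lentivirus-circCSPP1.

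Kinases, phosphatases and ubiquitin ligases that set the stability of PER and CRY proteins formed a list of 23, of which 22 were tested. In limma 0 of these were called, beside 11.4% of all tested genes, and 8 had an unadjusted p under 0.05, beside 28.2%. The unmoderated test also called 0, beside 6.77% of all tested genes, and 5 had an unadjusted p under 0.05, beside 25.8%. Their median log2 fold change was 0.08. These are modifiers of protein, and PER and CRY protein was not measured in these data.

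Of 12 clock cofactors, 2 were called higher in limma (16.7%), beside 4.69% of all tested genes called higher and 11.4% in either direction. CREBBP, a histone acetyltransferase recruited by CLOCK and BMAL1, rose from 30.3 ± 0.692 to 41.7 ± 3.28 FPKM (log2 fold change 0.45, adjusted p = 0.024), and WDR5, a histone methyltransferase subunit found with PER proteins, rose from 78.4 ± 1.11 to 99.1 ± 4.47 FPKM (0.33, adjusted p = 0.031; SD, n = 3 each). Of 10 clock output genes, 1 was called (10%), beside 11.4% of all tested genes. This was KLF9, which rose from 1.65, 1.64 and 1.57 FPKM under lentivirus-NC to 2.41, 2.62 and 2.84 FPKM under lentivirus-circCSPP1 (0.47, adjusted p = 0.030 in limma). These 3 calls lay close to the threshold, and CREBBP lost its call in 5 of 18 alternatives, WDR5 in 6 of 18 and KLF9 in 6 of 17, with adjusted p up to 0.15 in limma.

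Serum, cAMP and glucocorticoids reset the clock in cultured cells. Genes of these signals and their targets were read as separate lists, and resetting itself was not measured. Of 15 tested serum and CREB targets, 1 was called (6.67%), beside 11.4% of all tested genes. This was EGR1, an immediate early zinc finger factor. It read 4.05, 3.79 and 2.73 FPKM under lentivirus-NC and 11.3, 8.63 and 8.79 FPKM under lentivirus-circCSPP1 (log2 fold change 1.23, adjusted p = 0.0059 in limma). The study itself picked EGR1 out of these RNA-seq data as a microRNA target and followed it in further assays. Of 8 tested genes of the glucocorticoid receptor and its targets, 3 were called higher and 1 lower in limma. This is 50.0% against the 11.4% of all tested genes. The list was chosen with earlier results of these data known, so the share only describes these genes. TSC22D3, known as GILZ, rose from 14.4, 13.3 and 11.4 FPKM to 29.2, 33.2 and 32.6 FPKM (1.22, SE 0.12, adjusted p = 0.0023).

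GADD45B, a stress-induced signaling protein, rose from 84.7, 96.6 and 77.2 FPKM to 178, 166 and 154 FPKM (0.94, adjusted p = 0.0037 in limma). DUSP1, a phosphatase of MAP kinases, rose from 32.9, 32.7 and 34.4 FPKM to 65.0, 48.3 and 57.8 FPKM (0.75, adjusted p = 0.011). SGK1, a kinase of ion transport and a textbook glucocorticoid target, fell from 2.75, 2.45 and 2.74 FPKM to 1.74, 1.43 and 1.71 FPKM (log2 fold change -0.47, adjusted p = 0.032), so the called targets did not share a direction. GADD45B and DUSP1 also answer to stress and growth signals. The other 4 tested genes of the list were not called. The calls of EGR1, TSC22D3 and GADD45B held in each of the 18 alternatives, while DUSP1 lost its call in 4 of 18 and SGK1 in 7 of 17.

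**Figure D4:**
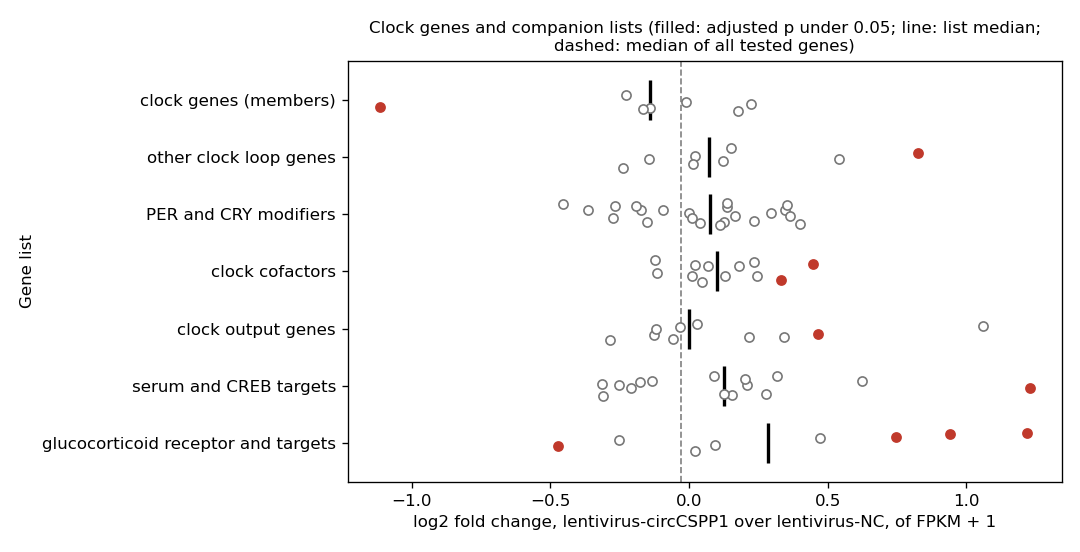
Log2 fold change of FPKM + 1, lentivirus-circCSPP1 over lentivirus-NC, for each tested clock gene and each tested gene of the 6 companion lists (filled: adjusted p under 0.05 in limma, line: list median, dashed line: median of all 12322 tested genes, -0.028). Over the 75 companion genes, 8 were called higher and 1 lower (12%), and the list medians lay between -0.0013 and 0.28.

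Over the companion lists together, 9 of 75 tested genes were called (12%), close to the 11.4% of all tested genes. The groups did not overlap in 33 of 75, a larger share than the 4491 of 12322 tested genes (36.4%). The lists were not tested as sets. The median log2 fold change of the 75 was 0.09, with 49 higher and 26 lower, where the median of all tested genes was -0.028 and 46.0% of them were higher.

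Part of the spread between the overexpression libraries followed base composition. In lentivirus-circCSPP1, replicate 1 departed from the mean of replicates 2 and 3 by -0.47 on the log2 scale for CLOCK, whose longest coding transcript has 37.2% GC, and by -0.30 for CRY1 (47.7% GC). At the other end PER1 (62.7% GC) departed by 0.19 and DBP (65.5% GC) by 0.40. BHLHE40 (52.0% GC), TEF (56.7% GC) and CRY2 (57.0% GC) departed by -0.050, 0.0081 and -0.0085. Over the 82 tested members and companion genes the departure and GC content had a Spearman rho of 0.832 and a Pearson r of 0.771, a description across genes of the same libraries, which are not independent replicates. After a loess correction of each library for GC content and length, the log2 fold change of BHLHE40 was -1.13, that of NR1D2 was 0.85 (adjusted p = 0.00078 in limma), and that of NR1D1 was 0.54 (adjusted p = 0.0074). The same correction raised the calls among all tested genes from 1399 to 3368. With replicate number added as a block, the adjusted p in limma was 0.0087 for NR1D2 and 0.018 for NR1D1.

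**Figure D5:**
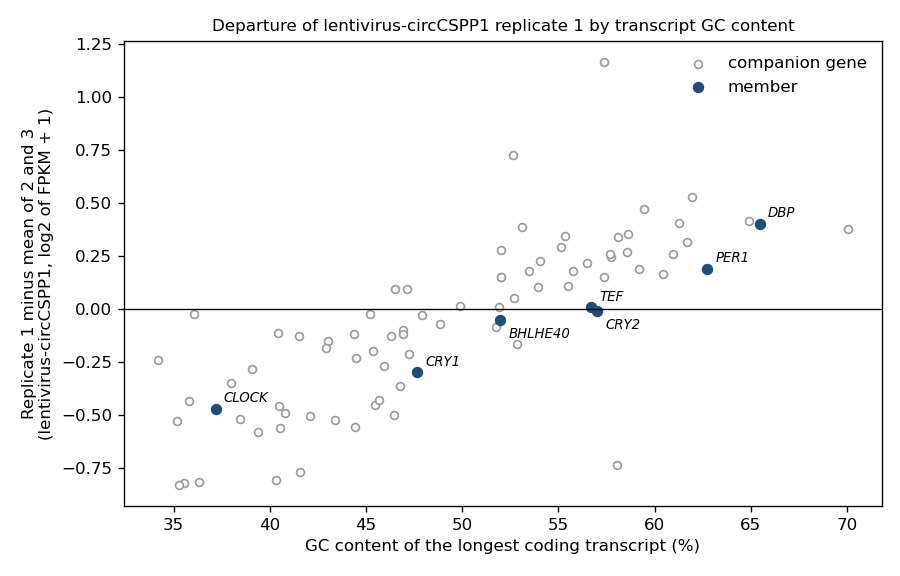
Departure of lentivirus-circCSPP1 replicate 1 from the mean of replicates 2 and 3 on the log2(FPKM + 1) scale (y axis) against the GC content of the longest coding transcript in percent (x axis), for 7 members and 75 companion genes. CLOCK at 37.2% GC lies 0.47 below zero, DBP at 65.5% GC lies 0.40 above it, and BHLHE40 lies close to zero.

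Over the 6 libraries, the tested genes whose pattern was most like that of BHLHE40 on the log2(FPKM + 1) scale were MAGED1 (Pearson r = 0.998, from 36.1 to 22.6 FPKM), GPRC5A (r = 0.9971, from 285 to 112 FPKM) and MT-ND4L (r = 0.9958, from 12995 to 7212 FPKM). The 6 points of each correlation share their libraries, and such values come from the step between the groups. MT-ND4L shares bases with MT-ND4 on the mitochondrial genome, so its reads may be shared with that gene.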

How the data were processed

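Poly(A) RNA was sequenced from both ends of the fragments, and the authors deposited 1 table of FPKM values, rounded to 2 decimals, with 1 column per library. The submitters' processing notes name hg38, and the aligner, the annotation, the program behind the FPKM values and the use of strand are not given in the sources used here. Each column name gives its group and replicate number, and 0 columns went unused.

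Since FPKM is relative to the library total, a change in abundant genes shifts the values of the rest. Values were taken to log2(FPKM + 1). A mean of 1 FPKM or more was required, which left 12322 genes, and these were fitted in limma 3.58.1 (R 4.3.3; eBayes with trend, two-sided, without covariates) with Benjamini-Hochberg adjustment. A call was an adjusted p under 0.05. No count model was fitted. Single members also had an exact two-sided permutation test, which cannot go below 0.1 with 3 libraries against 3. The study's thresholds were used as a second rule.

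Depth was the one at which FPKM times length gave whole fragments, within a tolerance of 0.15, in transcripts under 800 nt. This held for 93.3% to 97.6% of 73 to 89 values per library, and the depth and the fragment estimates cover counting error only. Coordinates, overlaps, lengths and GC content came from GENCODE release 29 (GRCh38), which may not be the authors' annotation. Of 19643 identifiers in a gene name table, 856 carried another symbol in the file, as PER1 did. Promoters were from RefSeq.

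The clock genes, the companion lists (1 of whose genes, FBXL21, has no row) and the markers were chosen with earlier results of these data known. The summed level of the prostate luminal markers is not reported here. Text naming followed a rule: every member, companion genes with an adjusted p under 0.05 (at most 6 per list), ARNTL, NPAS2, NR1D1, NR1D2, RORA, NFIL3 and BHLHE41, and the 3 genes most like the member with the largest change. The 18 alternatives were other pseudocounts (0.1, 0.01), filters (none, 5 FPKM), scalings (TPM, median ratio, quantile), variance models, the replicate block, a GC content and length correction with and without the block, and leaving out each library. Figures were drawn with matplotlib 3.10.9.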

Additional observations from a re-analysis of the deposited data

How the results depend on the processing

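BHLHE40 kept its direction and its call in each of the 18 alternatives. The count of clock genes called was 1 in 17 of them and 2 with unmoderated variance, which added TEF. Of all tested genes 1399 were called, and 834 with unmoderated variance, 923 with the replicate block, 3368 after the GC content and length correction, 2590 after that correction with the block, and 300 (without lentivirus-NC replicate 1) to 3512 (without lentivirus-circCSPP1 replicate 1) on leaving out a library. Of the companion genes 9 were called, 20 after the correction, 22 after it with the block, and 3 to 26 on leaving out a library. The labels do not say whether the replicate numbers pair the libraries. The deviations of same-numbered libraries correlated at 0.0734, 0.00653 and 0.0572. For lentivirus-circCSPP1 replicates 1 and 3 the same-numbered control was the best match, while replicate 2 correlated best with lentivirus-NC replicate 3 (0.0358). Such small values from 3 libraries per group can neither show nor exclude pairing. With the replicate block BHLHE40 had an adjusted p of 0.008 in limma, and CREBBP, WDR5, KLF9 and SGK1 had 0.057, 0.089, 0.079 and 0.070.

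The log2 fold changes of PER1, DBP, NPAS2 and RORA turned sign in some alternatives. PER1 was 0.0071 with TPM, 0.014 with median ratios, 0.048 with quantiles, 0.020 after the GC content and length correction with or without the block, and -0.073 to 0.044 on leaving out a library. DBP was 0.011 with quantiles and -0.31 to 0.054 on leaving out a library, where NPAS2 ranged from -0.11 to 0.097 and RORA from -0.098 to 0.16. Without lentivirus-circCSPP1 replicate 1, ARNTL (0.27, adjusted p = 0.030 in limma), NFIL3 (0.32, adjusted p = 0.040) and NR1D1 (0.38, adjusted p = 0.035) passed. The cause of these changes was not tested. Few fragments limit the precision of PER2 and HLF.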

Other observations

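Within the lentivirus-NC group the ratio of DBP to CLOCK, both in FPKM, was 0.463, 0.225 and 0.134 in replicates 1, 2 and 3, a spread wider than that of lentivirus-circCSPP1 (0.301, 0.128 and 0.138). Replicate 1 of lentivirus-NC held the highest DBP and CRY2 and the lowest CLOCK of its group, and replicate 3 the reverse. The NR1D2 to ARNTL ratio was 0.30, 0.273 and 0.246 in lentivirus-NC and 0.451, 0.5 and 0.462 in lentivirus-circCSPP1, and the groups did not overlap. They did not overlap in NR1D2 alone either, so the ratio is no independent support for its change.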
